A study of Mus musculus with 2 samples.

Results

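The 7 genes described here encode the signals that draw B cells into tissue and keep them alive, with their receptors: Cxcl13 and its receptor Cxcr5, the survival ligands Tnfsf13b (BAFF) and Tnfsf13 (APRIL), and the receptors Tnfrsf13c (BAFF-R), Tnfrsf13b (TACI) and Tnfrsf17 (BCMA). They were taken by symbol from the 32285 genes of the count matrices, and all 7 were found. The data were 2 droplet single-cell libraries of leukocytes, selected with magnetic beads against CD45 from intracranial tumours of CT-2A, a glioma line of mouse origin, 14 days after implantation. One library came from Glut5 KO mice, which lack the fructose transporter encoded by Slc2a5, and the other from WT mice. Tumour line, interval, bead selection and a load of 16000 cells were the same for both. Each genotype had 1 library, so differences are given without p-values, nothing was checked against replicates, and genotype cannot be told apart from library.

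CXCL13 is the chemokine that guides B cells into follicles through CXCR5, the receptor carried by B cells and by some T cells and dendritic cells. BAFF is needed for the survival of mature B cells and acts through BAFF-R, TACI and BCMA, while APRIL acts through TACI and BCMA and sustains plasma cells. In lymphoid organs CXCL13 comes mainly from stromal cells, and myeloid cells are a known source of BAFF and APRIL.

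After removal of barcodes with fewer than 300 genes or at least 10% mitochondrial transcripts, 12112 Glut5 KO cells and 11473 WT cells remained, with medians of 6523.5 and 8682 unique molecular identifiers (UMIs, 1 per captured transcript) per cell. Slc2a5 had 1 UMI in the Glut5 KO library and 384 UMIs in the WT library. Haemoglobin transcripts stood at 26.5 counts per 1000000 UMIs (CPM) in the Glut5 KO library and 3.16 CPM in the WT library. The labels name 1 mouse per library, but cells of both sexes were present in each, with Xist alone (3473 Glut5 KO and 2891 WT) or with Y-linked UMIs alone (2646 Glut5 KO and 3620 WT), so each held cells of more than 1 animal. The libraries shared 188 cell barcodes. Cells were assigned to classes by 13 lists of marker genes that contain none of the 7 members, and 1613 Glut5 KO and 1216 WT cells reached no class. A gated class is a range of marker scores and not a sorted type: 936 of 5522 Glut5 KO and 1020 of 6001 WT monocyte/macrophage-gated cells lay near the boundary of the gate, and so did 87 of 1332 and 91 of 1543 microglia-gated cells. Microglia-gated cells had a median of 121 microglial marker UMIs per 10000 in the Glut5 KO library and 109 in the WT library, against 12.4 and 13.2 from the monocyte/macrophage list. In cDC2-gated cells the order was the other way, with 13.8 and 11.9 from their own list against 36.4 and 42.4 from the monocyte/macrophage list, so the name of that class is weak. The lists were close in cDC1-gated cells, at 28.1 and 27.5 against 25.4 and 22.5. In pDC-gated cells they stood at 93.5 and 89.9 against 68.8 and 66.0. Of the pDC-gated cells, 149 of 264 Glut5 KO and 79 of 126 WT cells also scored for a second class. Levels below are CPM within the class, and the exact 95% intervals in brackets cover counting error alone. Less RNA per cell and fewer expressing cells cannot be told apart in such sums.

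Cxcl13 (ENSMUSG00000023078, GRCm38 chr5:95956951-95961068, plus strand) was mainly a transcript of microglia-gated cells. It stood at 496 CPM [483 to 509] in Glut5 KO microglia-gated cells and 576 CPM [565 to 588] in WT microglia-gated cells. Those cells held 74.3% [73.3 to 75.3] of the gene's 7741 UMIs in the Glut5 KO library and 65.9% [65.1 to 66.7] of its 14428 UMIs in the WT library, from 1332 of 12112 and 1543 of 11473 cells. Monocyte/macrophage-gated cells, the most numerous class, had 18.0 CPM [16.8 to 19.3] in the Glut5 KO library and 28.5 CPM [27.2 to 29.8] in the WT library, and held 10.8% and 12.6% of the UMIs. Cells outside every class held 11.5% of them in the Glut5 KO library and 11.9% in the WT library. Among these CD45-selected cells, microglia-gated cells were thus the class in which the transcript of this B cell chemokine was most abundant, in both libraries. The few non-CD45-gated cells, 145 Glut5 KO and 202 WT, stood at 10.8 and 35.3 CPM. Shares of the whole tumour's Cxcl13 transcripts cannot be read from cells selected in this way.

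Among the monocyte/macrophage-gated cells, the highest levels were in those that fell in clusters with microglial leading genes (cluster 8 with Sparc, Cst7 and Olfml3, and cluster 11 with Sparc, Cst7 and P2ry12). The 61 Glut5 KO and 94 WT cells of this gate in cluster 11 stood at 337 and 303 CPM of Cxcl13, and the 162 and 220 cells in cluster 8 at 239 and 211 CPM. The large macrophage cluster led by Pf4 and Mrc1 (cluster 2) had 3.97 CPM in the 643 Glut5 KO cells and 11.9 CPM in the 1388 WT cells, and the monocyte cluster led by Chil3 and Ly6c2 (cluster 6) had 2.85 and 5.15 CPM. When classes were taken from whole clusters rather than from the per-cell gate, monocytes and macrophages held 3.85% of the Glut5 KO and 3.87% of the WT Cxcl13 UMIs. Clusters 4, 7 and 12 took no class name, so their cells count for no class there. Their monocyte/macrophage-gated cells held 149, 55 and 35 Cxcl13 UMIs in the Glut5 KO library and 493, 110 and 94 in the WT library. Those of clusters 8 and 11 held 79 and 248 in the Glut5 KO library and 127 and 486 in the WT library.

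**Figure D1:**
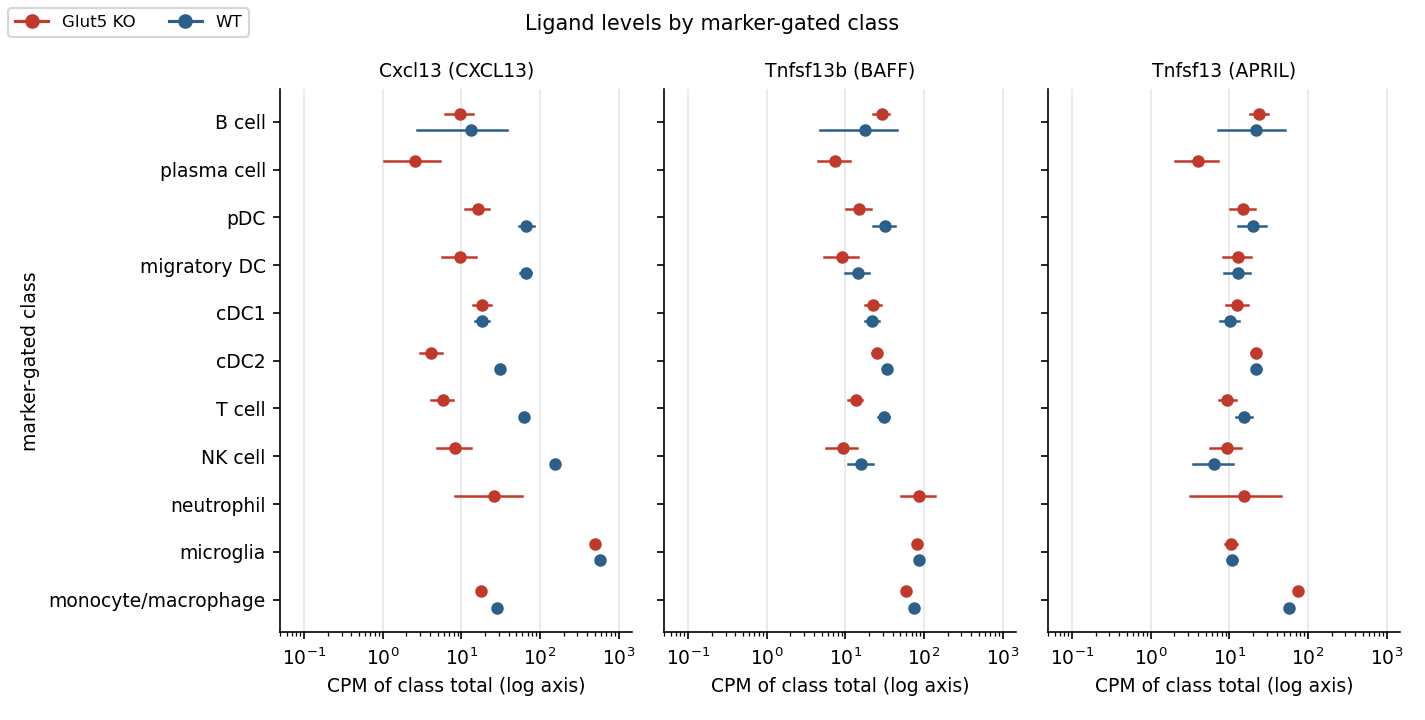
Levels of the 3 ligands in CPM (log axis) by marker-gated class, with Glut5 KO in red above WT in blue. Points give the level and lines the exact 95% Poisson interval. The non-CD45 and mast/basophil classes are not drawn, nor is a class in a library where it has fewer than 20 cells. Cxcl13 peaks in microglia-gated cells at 496 and 576 CPM, Tnfsf13b is high in microglia- and monocyte/macrophage-gated cells, and Tnfsf13 is highest in monocyte/macrophage-gated cells at 74.0 and 58.1 CPM.

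Most microglia-gated cells had no Cxcl13 UMI, and a few had very many. At least 1 UMI was seen in 20.5% of Glut5 KO and 23.2% of WT microglia-gated cells, at median depths of 7009 and 9639 UMIs. For comparison, NK cell-gated cells, which are not known as a source of CXCL13, had a UMI in 2.41% of Glut5 KO and 6.22% of WT cells at 3526 and 3391.5 UMIs. After thinning every cell to 1000 UMIs (92 Glut5 KO and 31 WT microglia-gated cells were shallower and left out) the shares were 10.4% [8.76 to 12.2] in Glut5 KO and 13.8% [12.1 to 15.6] in WT microglia-gated cells, and 1.04% and 2.22% in NK cell-gated cells. The 96 Glut5 KO cells with at least 10 Cxcl13 UMIs were 7.21% [5.88 to 8.73] of the class and held 92.3% of its Cxcl13 UMIs. In the WT library 151 such cells, 9.79% [8.35 to 11.4] of the class, held 93.3%. The level of the class therefore rests on these 96 and 151 cells, and the counting intervals on UMIs understate the error that comes from sampling so few cells.

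**Figure D2:**
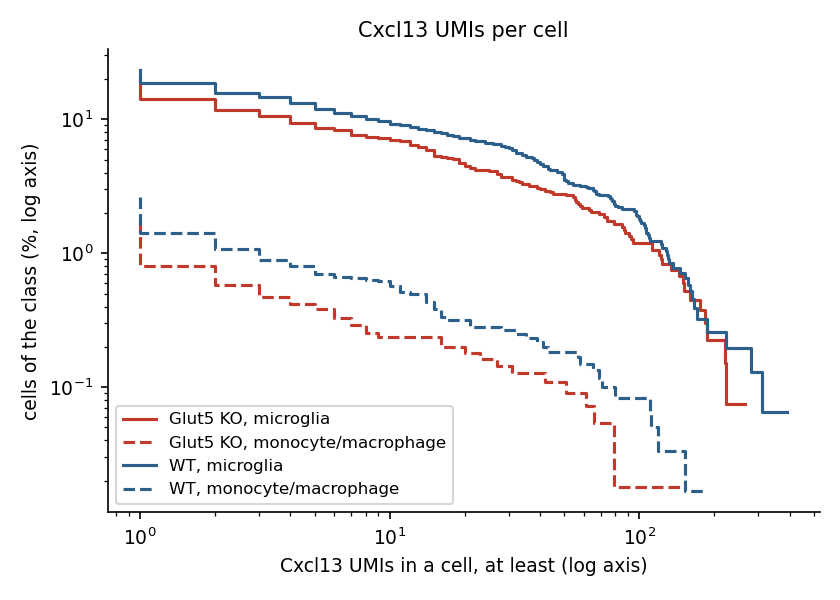
Share of cells (%, log axis) with at least the number of Cxcl13 UMIs on the horizontal axis (log axis), for microglia-gated cells (solid) and monocyte/macrophage-gated cells (dashed), Glut5 KO in red and WT in blue. The microglia curves lie above the monocyte/macrophage curves: 7.21% of Glut5 KO and 9.79% of WT microglia-gated cells had at least 10 UMIs, against 0.235% and 0.617% of monocyte/macrophage-gated cells.

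Microglia-gated cells with at least 10 Cxcl13 UMIs were set against those with none within each library, as a description, since the split was made on Cxcl13 itself and its cells were deeper (median 14365.5 against 6381 UMIs in the Glut5 KO library and 13218 against 9039 in the WT library). The genes most raised in both libraries, ranked by the smaller of the 2 ratios with 10 CPM added, were led by Il12b, a subunit of interleukin-12 and interleukin-23, and Ccl5, a T cell-attracting chemokine. Il12b stood at 105 CPM in Cxcl13-high and 27.2 CPM in Cxcl13-negative Glut5 KO microglia-gated cells, and at 53.2 and 14.1 CPM in the WT library. Ccl5 stood at 1908 and 888 CPM in the Glut5 KO library, and at 2712 and 1065 CPM in the WT library. Il1rn, the interleukin-1 receptor antagonist, came next, with log2 ratios of 0.94 in the Glut5 KO and 0.87 in the WT library. The interferon-induced Ifit1, Ifit3, Ifit3b and Oasl1 were also among the 12 highest, with log2 ratios between 0.62 and 0.79. The lower side was led by the chemokine receptor gene Ccr7 and the granzyme gene Gzmc, which mark dendritic and killer cells. They stood at 1.48 and 4.43 CPM in the Cxcl13-high Glut5 KO cells against 22.1 and 33.9 CPM in the Cxcl13-negative ones. Next came Hspb1, Cxcl2 and Dnajb1, with log2 ratios of -1.41, -1.73 and -1.08 in the Glut5 KO library. In the WT library these were -1.18, -1.17 and -1.07. Behind them stood Spp1 (osteopontin), at 627 CPM in Cxcl13-high and 1291 CPM in Cxcl13-negative Glut5 KO cells and at 451 and 1136 CPM in the WT library. Igf1, a growth factor of activated microglia, had log2 ratios of -0.90 and -1.25.

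Promoter windows are shown for Cxcl13, Tnfsf13b and Tnfrsf17, members seen in microglia-gated cells whose windows held a motif match. Each window runs from 250 bases before to 50 after a RefSeq start (GRCm38.p6), 5' to 3' on the gene's strand, and capitals mark matches to 6 motifs searched on both strands: TATAAA (the core promoter box), GAGGAAGT (PU.1 core), ATTTGCAT (octamer), CACGTG (E-box), and the interferon response element and NF-kB motifs with unspecified inner bases. The Cxcl13 window lies at chr5:95956689-95956988, the second of the 2 Tnfsf13b windows at chr8:10006383-10006682 and the Tnfrsf17 window at chr16:11313559-11313858, all on the plus strand.
Cxcl13: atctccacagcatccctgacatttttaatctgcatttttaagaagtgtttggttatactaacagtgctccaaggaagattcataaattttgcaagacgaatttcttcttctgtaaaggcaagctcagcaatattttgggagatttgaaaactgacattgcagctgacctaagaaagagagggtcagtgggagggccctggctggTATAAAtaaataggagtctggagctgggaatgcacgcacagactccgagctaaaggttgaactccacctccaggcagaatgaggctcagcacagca
Tnfsf13b: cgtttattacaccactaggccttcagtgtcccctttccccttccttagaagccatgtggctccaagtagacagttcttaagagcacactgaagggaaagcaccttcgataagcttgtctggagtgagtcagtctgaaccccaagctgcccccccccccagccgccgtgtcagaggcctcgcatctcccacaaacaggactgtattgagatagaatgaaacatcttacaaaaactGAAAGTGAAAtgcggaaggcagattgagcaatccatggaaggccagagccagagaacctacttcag
Tnfrsf17: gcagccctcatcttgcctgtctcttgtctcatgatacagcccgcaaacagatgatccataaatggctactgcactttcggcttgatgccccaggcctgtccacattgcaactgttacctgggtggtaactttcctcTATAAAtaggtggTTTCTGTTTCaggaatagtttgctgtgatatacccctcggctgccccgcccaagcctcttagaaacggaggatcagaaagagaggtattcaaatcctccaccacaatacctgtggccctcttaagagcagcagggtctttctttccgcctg
The Cxcl13 window holds TATAAA from -46, and 13.6% of 32544 promoter windows of this length hold these letters. The Tnfsf13b window holds the interferon response letters from -16, as do 3.45% of all windows. The Tnfrsf17 window holds TATAAA from -114 and the interferon response letters on the opposite strand from -101. The octamer, PU.1, NF-kB and E-box letters, found in 1.75%, 3.11%, 1.61% and 7.17% of all windows, were in none of the 7 windows of the 6 members with an entry. A match describes letters only. Cxcr5 had no entry.

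Tnfsf13b, which encodes BAFF (ENSMUSG00000031497, chr8:10006467-10039072, plus strand), was spread over the myeloid cells. Microglia-gated cells had 81.8 CPM [76.7 to 87.2] in the Glut5 KO library and 87.3 CPM [82.9 to 92.0] in the WT library. Monocyte/macrophage-gated cells had 58.8 CPM [56.6 to 61.0] in the Glut5 KO library and 74.4 CPM [72.3 to 76.5] in the WT library, and held 58.5% and 63.4% of all Tnfsf13b UMIs. The 84 neutrophil-gated Glut5 KO cells stood at 87.4 CPM [50.9 to 140.0] from 17 UMIs, and the 14 WT neutrophil-gated cells had 0 UMIs, which allows up to 51.4 CPM. The dendritic classes were lower, from 9.11 CPM in migratory DC-gated to 25.1 CPM in cDC2-gated cells of the Glut5 KO library and from 14.5 to 33.6 CPM in the same classes of the WT library. NK cell-gated cells had 9.25 and 16.0 CPM. No single cell carried the gene the way Cxcl13 was carried: the highest monocyte/macrophage-gated cell had 13 UMIs in either library.

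Tnfsf13, which encodes APRIL (ENSMUSG00000089669, chr11:69682846-69685784, minus strand), was highest in monocyte/macrophage-gated cells. They stood at 74.0 CPM [71.5 to 76.5] in the Glut5 KO library and 58.1 CPM [56.3 to 60.0] in the WT library, and held 82.3% and 83.4% of its UMIs. Microglia-gated cells had 10.6 CPM [8.81 to 12.7] in the Glut5 KO library and 10.9 CPM [9.37 to 12.6] in the WT library, below the monocyte/macrophage level in each library by more than the counting error. Microglia-gated cells thus carried BAFF and Cxcl13 transcripts and little APRIL. The gene lies inside the readthrough gene Tnfsfm13 (Tnfsf12 joined to Tnfsf13), which the feature list lacks, and opposite the antisense gene Tnfsf13os, so that readthrough transcripts cannot be told apart from APRIL.

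Within the monocyte/macrophage-gated cells the 2 survival ligands ran along different clusters. BAFF was highest in cluster 7, led by Fcrl5, Cd300e and Ms4a7, at 127 CPM in the Glut5 KO and 121 CPM in the WT library, and stood at 117 and 109.8 CPM in the proliferating cluster 4 (each pair Glut5 KO and WT). Clusters 8 and 11 stood at 90.7 and 80.3 CPM in the Glut5 KO library and at 109.7 and 110.3 CPM, level with cluster 4, in the WT library. It was low in the monocyte cluster 6, at 12.2 and 8.17 CPM. APRIL stood at 90.1 and 106 CPM in cluster 6 and at 85.8 and 97.2 CPM in cluster 1, led by Ly6i, Hp and Clec4e, where BAFF was 20.3 and 26.5 CPM. The highest APRIL level was in cluster 20, led by Gpnmb, Fabp5 and Spp1, with 234 CPM [210 to 261] in 131 Glut5 KO cells and 212 CPM [160 to 277] in 23 WT cells, where BAFF was 8.83 and 15.7 CPM. In the Pf4 and Mrc1 cluster 2 both were present, BAFF at 69.3 and 86.1 CPM and APRIL at 96.1 and 65.1 CPM. The clusters were made from all kept cells of both libraries, on variable genes that left out the 7 members, and these levels are a description.

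**Figure D3:**
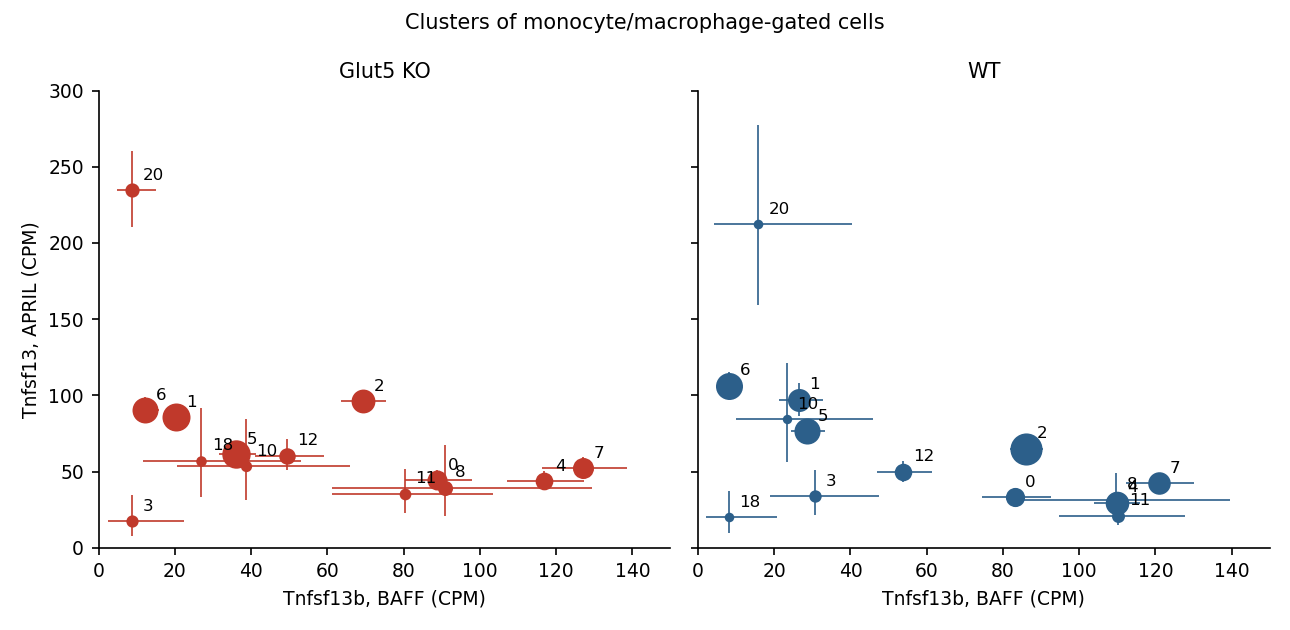
Tnfsf13b (BAFF) level against Tnfsf13 (APRIL) level, both in CPM, in the clusters of monocyte/macrophage-gated cells with at least 20 cells in each library, Glut5 KO on the left and WT on the right. Numbers name clusters, marker size grows with the number of cells and lines are exact 95% Poisson intervals; cluster 20 stands at the top left with 234 and 212 CPM of APRIL, and cluster 7 at the right with 127 and 121 CPM of BAFF.

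Between the genotypes, Cxcl13 was at least 1.5-fold lower in Glut5 KO cells of 7 of the 9 classes compared, the exceptions being microglia- and cDC1-gated cells. That size is used here to call a difference, for genes with at least 20 UMIs over both libraries. In microglia-gated cells the log2 ratio of Glut5 KO over WT was -0.22 [-0.26 to -0.17], and 0 of 6 members were past the size in either direction, where 4.25% of 12291 genes were higher and 7.66% lower. In monocyte/macrophage-gated cells Cxcl13 had a log2 ratio of -0.66 [-0.78 to -0.54] and was the 1 of 6 members called lower, as were 6.79% of 14394 genes. Tnfrsf13c was the 1 called higher, as were 7.63% of genes, at 0.886 CPM (41 UMIs) in Glut5 KO and 0.314 CPM (20 UMIs) in WT cells. The Cxcl13 call was lost, with log2 ratios of -0.42 to -0.54, when cells were averaged with equal weight, thinned to 1000 UMIs or cleared of the highest doublet scores. In the whole libraries Cxcl13 stood at 80.0 CPM in Glut5 KO and 124 CPM in WT cells, a log2 ratio of -0.64.

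NK cell-gated cells stood at 8.32 CPM of Cxcl13 in the Glut5 KO and 156 CPM in the WT library, T cell-gated cells at 5.79 and 62.0 CPM, cDC2-gated cells at 4.15 and 30.9 CPM and pDC-gated cells at 16.1 and 67.2 CPM. These WT levels came mostly from single cells: 2 NK cell-gated cells held 269 of 313 UMIs, 4 T cell-gated cells held 267 of 311, 7 cDC2-gated cells held 249 of 330 and 1 pDC-gated cell held 76 of 85. Likewise 2 WT migratory DC-gated cells held 129 of 155 UMIs and 2 WT non-CD45-gated cells held 99 of 106. The share of cells with a Cxcl13 UMI ran the other way in 2 of the classes called lower, with overlapping intervals. It was 6.44% in Glut5 KO and 3.17% in WT pDC-gated cells, and 5.52% and 2.48% in non-CD45-gated cells. In the other classes called lower the share was lower in Glut5 KO cells too. cDC1-gated cells stood at 18.4 CPM in the Glut5 KO and 18.5 CPM in the WT library. Whether doublets with microglia gave these cells their Cxcl13 UMIs was not tested.

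The members' calls in the other classes are given beside the share of all genes called the same way. In NK cell-gated cells 0 of 4 measured members were higher (7.05% of all genes) and 3 lower (7.78%), namely Cxcl13, Tnfsf13b and Tnfrsf13b. In T cell-gated cells 1 of 6 was higher (8.21%), Tnfrsf13c, and 3 were lower (6.5%), Cxcl13 and both survival ligands. In pDC-gated cells 1 of 5 was higher (8.34%) and 2 lower (9.0%), Cxcl13 and Tnfsf13b, and in migratory DC-gated cells 0 of 5 were higher (7.89%) and the same 2 lower (6.7%). In cDC2-gated cells 2 of 6 were higher (5.0%), Cxcr5 and Tnfrsf13c, and 1 lower (4.95%), Cxcl13. In cDC1-gated cells 1 of 5 was higher (6.98%), Tnfrsf13c, and 0 lower (6.15%). In non-CD45-gated cells 2 of 4 were higher (13.7%), Tnfsf13 and Tnfrsf13b, and 1 lower (10.0%), Cxcl13. Some of these calls rest on few UMIs and had counting intervals that held 0. In NK cell-gated cells these were Tnfsf13b (20 Glut5 KO and 32 WT UMIs) and Tnfrsf13b (9 and 13). The others were Tnfsf13b in migratory DC-gated (17 and 34), Tnfrsf13c in cDC1-gated (19 and 17) and Tnfrsf13b in non-CD45-gated cells (16 and 17).

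BAFF was lower and APRIL higher in Glut5 KO monocyte/macrophage-gated cells, both by less than 1.5-fold: the log2 ratio was -0.34 [-0.41 to -0.27] for Tnfsf13b and 0.35 [0.28 to 0.42] for Tnfsf13. In microglia-gated cells the ratios were -0.09 [-0.21 to 0.03] and -0.04 [-0.38 to 0.30], intervals that hold 0. The 2 ligands did not differ by genotype in the same way in every cluster. BAFF was 69.3 CPM in Glut5 KO and 86.1 CPM in WT cells of cluster 2, but 36.1 and 28.6 CPM in cluster 5, led by Ly6i and class II genes. APRIL was 96.1 CPM in Glut5 KO and 65.1 CPM in WT cells of cluster 2, and 90.1 and 106 CPM in cluster 6 and 61.4 and 76.5 CPM in cluster 5. The gate also held unequal numbers from each cluster: 982 Glut5 KO and 585 WT cells of cluster 1, where BAFF is low, 271 and 623 of cluster 4, where it is high, and 131 and 23 of cluster 20, where APRIL is highest.

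Inside each library the level of Cxcl13 also differed between cells with Xist alone and cells with Y-linked UMIs alone. In the Glut5 KO library microglia-gated cells with Xist stood at 709 CPM and those with Y-linked UMIs at 248 CPM, a log2 ratio of 1.52 [1.40 to 1.63]. In the WT library they stood at 894 and 338 CPM, a log2 ratio of 1.41 [1.33 to 1.48]. Cells with at least 10 Cxcl13 UMIs were 11.4% [8.70 to 14.5] of the 493 Xist-bearing and 6.8% [4.01 to 10.7] of the 250 Y-bearing Glut5 KO microglia-gated cells, and 15.2% [12.3 to 18.5] of 551 and 6.04% [3.86 to 8.92] of 381 in the WT library. The Xist-bearing cells were not deeper, with medians of 10708 and 11241 UMIs in the Glut5 KO library and 11428 and 14489 UMIs in the WT library. The number of animals of each sex is not given in the sources used here, so sex and animal cannot be told apart. In monocyte/macrophage-gated cells Cxcl13 stood at 32.7 CPM with Xist and 2.73 CPM with Y-linked UMIs in the Glut5 KO library, and at 52.3 and 14.7 CPM in the WT library, so that the log2 ratio of Glut5 KO over WT was -0.67 with Xist and -2.41 [-2.98 to -1.93], from 35 Glut5 KO UMIs, with Y-linked UMIs. The summed Cxcl13 level of microglia-gated cells was lower in Glut5 KO cells of both kinds. The log2 ratios of Glut5 KO over WT were -0.33 [-0.39 to -0.28] with Xist and -0.45 [-0.57 to -0.32] with Y-linked UMIs. The Y-bearing cells included only 17 Glut5 KO and 23 WT cells with at least 10 Cxcl13 UMIs. The share of such cells, 6.8% and 6.04%, was not lower in the Glut5 KO library, and its intervals overlapped.

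The survival ligands did not divide in the same way. In Glut5 KO monocyte/macrophage-gated cells BAFF stood at 81.4 CPM with Xist and 44.1 CPM with Y-linked UMIs, and in the WT library at 96.1 and 71.3 CPM. APRIL stood at 56.8 CPM with Xist and 88.4 CPM with Y-linked UMIs in the Glut5 KO library, and at 56.0 and 52.7 CPM in the WT library. The higher APRIL level of the Glut5 KO library was therefore seen in the Y-bearing cells, with a log2 ratio over WT of 0.75 [0.63 to 0.86], and was 0.021 [-0.11 to 0.15] in the Xist-bearing cells. BAFF was lower in Glut5 KO cells of both kinds, by a log2 ratio of -0.24 [-0.34 to -0.14] with Xist and -0.69 [-0.83 to -0.56] with Y-linked UMIs.

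**Figure D4:**
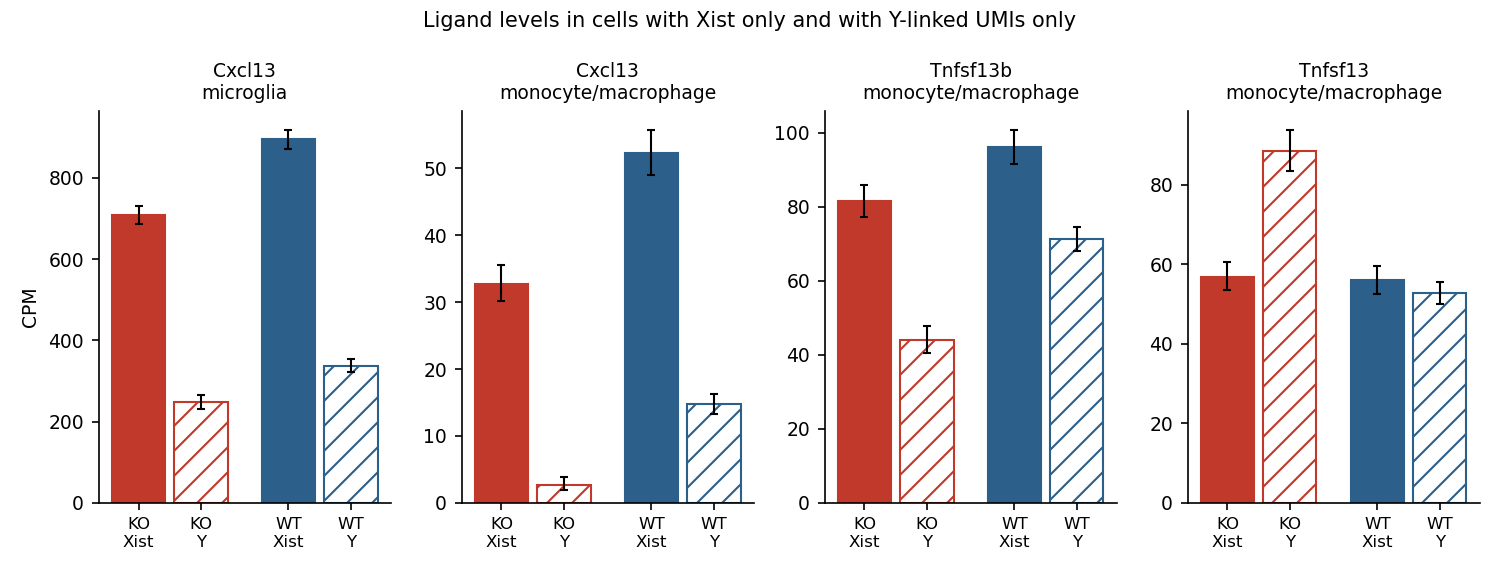
Ligand levels in CPM in cells with Xist UMIs and no Y-linked UMIs (filled bars) and cells with Y-linked UMIs and no Xist (hatched bars), Glut5 KO in red and WT in blue, with exact 95% Poisson intervals and a scale of its own in each panel. Cxcl13 in microglia-gated cells is higher in the Xist-bearing cells of both libraries (709 against 248 CPM and 894 against 338 CPM), and Tnfsf13 is highest in the Y-bearing Glut5 KO monocyte/macrophage-gated cells at 88.4 CPM.

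Cxcr5 (ENSMUSG00000047880, chr9:44511787-44561877, minus strand), which encodes the receptor of CXCL13, was highest in B cell-gated cells. They had 88.3 CPM [77.2 to 101] in the Glut5 KO library, from 228 UMIs in 355 cells, and 105 CPM [67.6 to 157] in the WT library, from 24 UMIs in 35 cells. Without the 134 Glut5 KO cells that also scored for a second class, the remaining 221 stood at 144 CPM [121 to 169.8]. In the WT library 18 of the 35 also scored for a second class, and no WT level without them is given here. WT B cell-gated cells had a median of 51.5 UMIs per 10000 from their own list and 37.7 from the monocyte/macrophage list. In the Glut5 KO library these were 56.2 and 16.5. A UMI of Cxcr5 was counted over all B cell-gated cells in what follows. A UMI was present in 40.6% and 37.1% of these cells at median depths of 4159 and 6209 UMIs, against 0.724% and 0.683% of monocyte/macrophage-gated cells at 7449 and 9236 UMIs. Next came migratory DC-gated cells, mature dendritic cells that express Ccr7, at 35.4 CPM [27.3 to 45.0] in the Glut5 KO and 30.3 CPM [23.6 to 38.2] in the WT library, with UMIs in 16.3% and 18.7% of the cells. T cell-gated cells stood at 6.35 and 4.79 CPM. Plasma cell-gated cells of the Glut5 KO library had 2.58 CPM [1.04 to 5.32], far below the B cell-gated cells.

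Tnfrsf13c (ENSMUSG00000068105, chr15:82221743-82224369, minus strand), which encodes BAFF-R, was also led by B cell-gated cells, at 98.4 CPM [86.6 to 111] in the Glut5 KO library and 145 CPM [99.8 to 204] in the WT library. Plasma cell-gated cells followed at 43.5 CPM [36.0 to 52.1] in 144 Glut5 KO cells, and the 5 WT plasma cell-gated cells held 8 UMIs. In pDC-gated cells the gene stood at 34.7 CPM [27.1 to 43.8] in the Glut5 KO and 18.2 CPM [11.5 to 27.3] in the WT library, a log2 ratio of 0.91 [0.24 to 1.68]. This ratio was 1.78 without cells that also scored for a second class and 1.98 with Y-linked UMIs alone. It was 1.98 after thinning to 1000 UMIs, which left 9 Glut5 KO cells and 1 WT cell with a UMI. Among the cells with Xist alone, with 11 UMIs in 82 Glut5 KO cells and with 24 WT cells, the ratio turned to -0.41. Microglia-gated cells were almost without Tnfrsf13c, at 0.862 CPM in the Glut5 KO and 0.0606 CPM in the WT library. In T cell-gated cells it stood at 5.79 CPM from 41 UMIs in the Glut5 KO and 0.399 CPM from 2 UMIs in the WT library. Of the T cell-gated cells, 219 of 817 Glut5 KO and 159 of 451 WT cells also scored for a second class. The libraries held 355 Glut5 KO and 35 WT B cell-gated cells. Whether doublets with B or plasma cells gave the T cell-, monocyte/macrophage-, cDC1-, cDC2- and pDC-gated cells their Tnfrsf13c UMIs was not tested. In the Glut5 KO library, 134 of the 355 B cell-gated cells also scored for a second class, and without them the level of the remaining 221 was 163 CPM [139 to 191]. The WT level includes the 18 of 35 cells that also scored for a second class.

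Tnfrsf13b (ENSMUSG00000010142, chr11:61126755-61149372, plus strand), which encodes TACI, was the most widely detected receptor. pDC-gated cells were highest in the Glut5 KO library, at 130.1 CPM [115 to 147], and stood at 98.0 CPM [81.5 to 117] in the WT library. A UMI was seen in 52.7% of the Glut5 KO and 55.6% of the WT pDC-gated cells. After thinning to 1000 UMIs the shares were 10.3% [6.82 to 14.7] and 15.0% [9.14 to 22.7], with overlapping intervals. The thinned level was 119 CPM in Glut5 KO and 175 CPM in WT pDC-gated cells, the reverse of the order without thinning. These levels come from a single random draw that left 26 Glut5 KO and 18 WT cells with a UMI, and have no interval here. Plasma cell-gated cells stood at 98.0 CPM [86.6 to 111] in the Glut5 KO library, with UMIs in 66.0% of 144 cells at a median depth of 19858 UMIs, and 12 UMIs lay in the 5 WT plasma cell-gated cells. B cell-gated cells had 63.1 CPM [53.8 to 73.6] in the Glut5 KO and 114 CPM [74.6 to 167] in the WT library, a log2 ratio of -0.88 [-1.46 to -0.20] that rests on 26 WT UMIs. The 221 Glut5 KO B cell-gated cells without a second class stood at 90.9 CPM [73.0 to 112]. Among the Glut5 KO classes the pDC-gated level lay above all others by more than the counting interval, and the plasma cell-gated level above that of all 355 B cell-gated cells, though not above that of the 221. In the WT library the intervals of these 3 classes overlapped.

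TACI was also seen at a lower level across the myeloid cells. Microglia-gated cells stood at 34.3 CPM [31.0 to 37.9] in the Glut5 KO and 36.2 CPM [33.3 to 39.2] in the WT library, monocyte/macrophage-gated cells at 28.9 and 32.6 CPM and cDC2-gated cells at 37.5 and 33.3 CPM. NK cell-gated cells, at 4.16 and 6.48 CPM, show the level in a class not known for TACI. Thinned to 1000 UMIs, 3.39% of Glut5 KO and 3.31% of WT microglia-gated cells had a UMI, against 0.518% of Glut5 KO and 0 of 361 WT NK cell-gated cells, which allows a share of up to 0.831%. T cell-gated cells stood at 36.7 CPM in the Glut5 KO and 30.3 CPM in the WT library. Summed over their many cells, monocyte/macrophage-gated cells held 40.4% of all TACI UMIs in the Glut5 KO and 56.0% in the WT library, and B cell-gated cells 4.93% and 0.703%.

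Tnfrsf17 (ENSMUSG00000022496, chr16:11313812-11320074, plus strand), which encodes BCMA, the receptor that keeps plasma cells alive, was seen mainly in plasma cell- and microglia-gated cells. Plasma cell-gated cells had 40.5 CPM [33.3 to 48.9] in the Glut5 KO library, from 110 UMIs in 53 of 144 cells, and 1 UMI in the 5 WT cells. Microglia-gated cells had a low level, 3.19 CPM [2.25 to 4.40] from 37 UMIs in 32 Glut5 KO cells and 3.15 CPM [2.35 to 4.13] from 52 UMIs in 47 WT cells, a log2 ratio of 0.02 [-0.63 to 0.65]. This ratio was 1.07 after thinning to 1000 UMIs, which left 9 Glut5 KO and 5 WT cells with a UMI, and -0.72 among cells with Xist alone. Monocyte/macrophage-gated cells had 0.0864 CPM [0.0236 to 0.221] in the Glut5 KO and 0.126 CPM [0.0543 to 0.248] in the WT library, with 4 and 8 UMIs in 5522 and 6001 cells. The WT library, with 5 plasma cell-gated cells, had 78.8% [67.0 to 87.9] of its 66 Tnfrsf17 UMIs in microglia-gated cells, against 23.4% [17.1 to 30.8] of 158 in the Glut5 KO library. No other annotated gene overlaps Tnfrsf17. B cell-gated cells had 3 UMIs in the Glut5 KO library and 0 in the WT library.

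**Figure D5:**
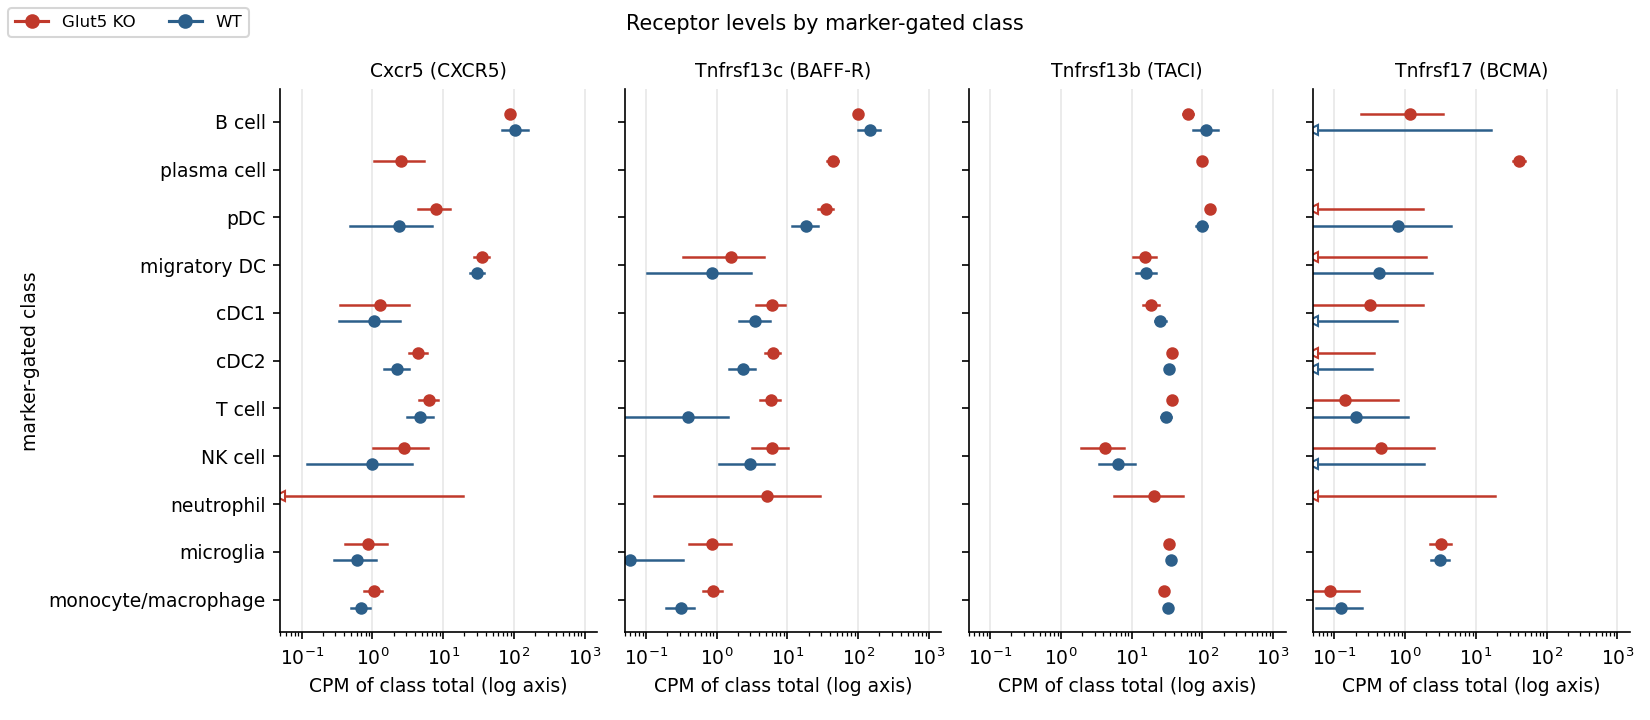
Levels of the 4 receptors in CPM (log axis) by marker-gated class, with Glut5 KO in red above WT in blue. Lines give exact 95% Poisson intervals and open triangles at the left edge mark 0 UMIs. The non-CD45 and mast/basophil classes are not drawn, nor is a class in a library where it has fewer than 20 cells. Cxcr5 and Tnfrsf13c peak in B cell-gated cells, Tnfrsf13b reaches 130.1 and 98.0 CPM in pDC-gated cells, and Tnfrsf17 stands out in Glut5 KO plasma cell-gated cells (40.5 CPM) and, at about 3 CPM, in microglia-gated cells of both libraries.

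The receptors were combined differently in the B and plasma classes. Of 355 Glut5 KO B cell-gated cells, 177 (49.9%) had a UMI of at least 1 of the BAFF and APRIL receptors, 95 of these also had Cxcr5 and 52 had both TACI and BAFF-R. TACI and BCMA were seen together in 1 of them. Of 144 Glut5 KO plasma cell-gated cells, 108 (75%) had at least 1 of these receptors, 46 had TACI with BCMA, 50 TACI with BAFF-R and 27 BAFF-R with BCMA. In the WT library 21 of 35 B cell-gated and 4 of 5 plasma cell-gated cells had at least 1. These are counts of cells with captured transcripts at unequal depth, so a cell without a UMI may still carry the receptor.

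B cell-gated cells were 2.93% [2.64 to 3.25] of Glut5 KO cells and 0.305% of WT cells, a log2 ratio of 3.25 [2.76 to 3.81], and plasma cell-gated cells numbered 144 and 5. The counts of cells with a ligand UMI come at unequal median depths, 6523.5 UMIs in the Glut5 KO and 8682 UMIs in the WT library: 546 Glut5 KO and 783 WT cells had a Cxcl13 UMI, 2413 and 3549 a Tnfsf13b UMI and 2396 and 2617 a Tnfsf13 UMI. The whole-library level of Tnfsf13 was 43.0 CPM in Glut5 KO and 38.2 CPM in WT cells, so the count of cells and the level did not run the same way. Per B or plasma cell-gated cell there were 15.5 Cxcl13 UMIs in the Glut5 KO and 361 in the WT library. The higher whole-library levels of Cxcr5, 4.95 CPM in Glut5 KO and 1.82 CPM in WT cells, and of Tnfrsf13c, 6.60 and 1.19 CPM, stood beside these cell numbers, while within B cell-gated cells the log2 ratios were -0.28 [-0.87 to 0.42] and -0.58 [-1.09 to 0.01]. Haemoglobin, a sign of blood in the suspension, was also higher in the Glut5 KO library (26.5 against 3.16 CPM), and its part in the B cell numbers was not tested.

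A list of 45 other genes of lymphocyte homing, B cell help and non-canonical NF-kB, the pathway below BAFF-R, was read in the same way. In microglia-gated cells 34 had at least 20 UMIs, 4 were at least 1.5-fold higher in Glut5 KO cells (4.25% of all genes) and 0 lower (7.66%), with a median log2 ratio of 0.10 against -0.05 for all genes. Of the listed genes with at least 100 UMIs over both libraries, the 2 highest were Ltb and Il7r. Ltb, a lymphotoxin subunit, stood at 13.3 CPM in Glut5 KO and 7.70 CPM in WT cells. Il7r, the interleukin-7 receptor, stood at 7.67 and 5.09 CPM. The 2 lowest by the same rule were Ch25h and Gpr183. Ch25h, which makes the first intermediate of the B cell-attracting oxysterol, stood at 46.6 and 63.6 CPM (log2 ratio -0.45 [-0.60 to -0.30]). Gpr183, the receptor of that oxysterol, stood at 66.8 and 79.2 CPM. In monocyte/macrophage-gated cells 39 had at least 20 UMIs, of which 6 were higher (7.63% of all genes) and 1 lower (6.79%), with a median of 0.18 against -0.05. Cyp7b1, which acts after Ch25h, stood at 2.01 CPM in Glut5 KO and 0.723 CPM in WT cells. Lta, the other lymphotoxin subunit, stood at 0.670 and 1.82 CPM and Il10 at 4.82 and 7.03 CPM. The NF-kB kinase gene Map3k14 and the processing substrate Nfkb2 stayed within 1.5-fold in both classes.

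In B cell-gated cells the highest of the 45 were Ccr7, which guides lymphocytes to T cell zones, at 716 CPM in Glut5 KO and 694 CPM in WT cells, the survival gene Mcl1 at 598 and 584 CPM and Ltb at 388 and 479 CPM. In Glut5 KO plasma cell-gated cells they were Mcl1 at 383 CPM, Bcl2a1b at 78.5 CPM and Bcl2l11, which encodes the death protein BIM, at 57.1 CPM. Of the other chemokine genes on the list, Cxcl12, Ccl19, Ccl20 and Ccl21a had 0 UMIs in the B and plasma cells of both libraries.

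Across 21 sums of classes and libraries with at least 50 cells, the genes whose log2(CPM + 1) followed each member most closely were found by Pearson correlation, as a description over points that share libraries. For Tnfsf13b they were Fcgr4, Plxna4os1 and Fhad1 (r = 0.96, 0.95 and 0.94), and for Tnfsf13 Dpep2, Nr1h3 and Tlr8 (0.90, 0.88 and 0.87). Cxcl13 was followed by Sncaip, Capn3 and Glrp1 (0.83, 0.82 and 0.81). Cxcr5 ran with Ccr6, another chemokine receptor of B cells (0.87), H2-Eb2 (0.85) and Mif4gd (0.81), Tnfrsf13c with the B cell receptor subunit Cd79a (0.91), Iglc1 (0.90) and Mzb1 (0.89), Tnfrsf13b with Rilpl2 (0.88), Tent5c (0.88) and Ly6k (0.83), and Tnfrsf17 with Ccr10, Ube2j1 and Ighg1 (0.87, 0.86 and 0.84). Over 16 clusters of monocyte/macrophage-gated cells Tnfsf13b was followed by Gatm, Smagp and Ntpcr (0.97, 0.95 and 0.95), Tnfsf13 by Ecm1, Lbp and F7 (0.88, 0.87 and 0.87) and Cxcl13 by Npl, Slc22a17 and Meis3 (0.87, 0.82 and 0.81).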

How the data were processed

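The authors deposited raw UMI counts (whole numbers, not normalized), per the file headers, and per the labels' protocols the libraries used the version 2 10x kit for 5' ends. The submitters' processing notes list mm10 and Cell Ranger 3.1.0, but 7.0.1 stands in the header of the matrices. Neither the annotation release nor the handling of intron reads is stated there. The labels say Glut5 KO where the design text says knockdown, and KO is kept here.

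Barcodes with at least 300 genes and under 10% mitochondrial UMIs were kept. Each marker was scaled to its 90th percentile among positive cells, list means were divided by the highest cluster mean, and a cell took its best list at a relative score of at least 0.4 with at least 3 markers detected. Microglia also needed a Sparc or Sall1 UMI, a rule set after seeing that macrophages otherwise joined them. Clusters (26) came from the Leiden method at resolution 1 on 2000 variable genes, 30 components and 20 neighbours (scanpy 1.11.5, seed 0). The variable genes left out the 7 members. A class name was given to 20 clusters, and cells of the rest count for no class when whole clusters are named. Doublets were scored with Scrublet and kept in the main values. UMIs were summed per class and library and divided by the class total (CPM). Log2 ratios had 0.5 added to each count, genes needed 20 UMIs over both libraries, and a difference was called at 1.5-fold. Intervals are exact 95% Poisson, Clopper-Pearson or conditional binomial intervals. A count of 0 allows up to 3 counts. All treat UMIs or cells as independent, so they cover counting error only. The computation was tested on simulated counts with known folds. Positions are from GENCODE vM21 on GRCm38, in which 7 of 7 member IDs matched, and promoters from RefSeq.

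The members, markers and pathway list were chosen with earlier results of these data known. Named besides the members were, from the pathway list, the 2 highest and 2 lowest log2 ratios per class described among genes with at least 100 UMIs, the 3 highest levels in B and plasma cells, and the 3 genes most like each member. One gene that this rule names is not reported here. Genes of the Cxcl13-high microglia, cluster-leading genes, Map3k14, Nfkb2 and the chemokine genes at 0 were chosen after their values were seen.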

Additional observations from a re-analysis of the deposited data

Results flagged for a closer look

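Tnfsf13 (APRIL) and Tnfrsf13b (TACI) were each higher in Glut5 KO cells of some classes and lower in others, with counting intervals that did not reach 0. Tnfsf13 had log2 ratios of Glut5 KO over WT of 0.35 in monocyte/macrophage-gated cells, 0.88 in non-CD45-gated cells and -0.72 in T cell-gated cells. Tnfrsf13b had 0.41 in pDC-gated and -0.18 in monocyte/macrophage-gated cells. The pDC-gated ratio was -0.57 after thinning to 1000 UMIs, 0.09 with equal weight per cell and 1.78 among cells with Xist alone. The thinned value rests on 26 Glut5 KO and 18 WT cells with a UMI. The value with Xist alone rests on 84 UMIs in 82 Glut5 KO cells and 10 UMIs in 24 WT cells. With 1 library per genotype the difference between classes was not tested. The non-CD45-gated and T cell-gated values of Tnfsf13 rest on 41 Glut5 KO and 45 WT UMIs and on 67 and 78 UMIs.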

How the results depend on the processing

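The log2 ratios of Glut5 KO over WT, the shares of Cxcl13 UMIs and the B cell values were recomputed under each alternative that applies. A stricter cell filter (500 genes, 5% mitochondrial) and removal of shared barcodes moved none of them beyond its interval, and the log2 ratio of the B cell-gated share ranged from 2.96 to 3.64. The removal of shared barcodes, and all alternatives for Cxcl13 in microglia and for the receptor ratios, were chosen after seeing the data. The causes of the changes below were not tested.

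Naming whole clusters gave -0.36 for Cxcl13 in microglia and 0.21 for Tnfsf13 in monocytes/macrophages. Removing the top 8% of Scrublet scores gave -0.54 for Cxcl13 in monocytes/macrophages. Equal weight per cell gave -0.42 for Cxcl13, -0.43 for Tnfsf13b and 0.14 for Tnfsf13 in monocytes/macrophages, and -0.56 for Cxcl13 in microglia. Leaving out cells with a second class gave -0.88 and -0.35 for Cxcl13 in monocytes/macrophages and microglia. Thinning gave -0.53, -0.43 and 0.16 for Cxcl13, Tnfsf13b and Tnfsf13 in monocytes/macrophages, and -0.54, 0.27 and 0.85 in microglia. Cells with Y-linked UMIs alone gave -2.41, -0.69 and 0.75 in monocytes/macrophages, and -0.45 for Cxcl13 and -0.37 for Tnfsf13b in microglia. Cells with Xist alone gave -0.24 for Tnfsf13b and 0.021 for Tnfsf13 in monocytes/macrophages, -0.33 for Cxcl13 and 0.15 for Tnfsf13b in microglia, and -0.41 for Tnfrsf13c in pDC-gated cells, a reversal. Tnfsf13b in microglia thus turned sign with thinning and with Xist alone. Tnfsf13 in microglia, -0.04, turned sign with thinning, whole clusters (0.12), equal weight per cell (0.25) and shared barcodes removed (0.04). Among the receptors, Tnfrsf13b turned to -0.57 in pDC-gated cells with thinning, and in microglia to 0.11 with thinning and 0.31 with Y-linked UMIs alone. Tnfrsf17 in microglia turned to -0.72 with Xist alone and -0.06 with whole clusters, and was 1.07 with thinning. Tnfrsf13c in pDC-gated cells was 1.78 without second-class cells, 1.98 with Y-linked UMIs alone and 1.98 with thinning. Cxcr5 in migratory DC-gated cells turned to -0.09 without high Scrublet scores.

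Of the Glut5 KO Cxcl13 UMIs, microglia held 77.2% with whole clusters, 76.8% without high Scrublet scores, 80.7% without second-class cells, 88.7% with Y-linked UMIs alone, 78.4% with Xist alone and 62.2% after thinning. In the WT library these were 75.4%, 71.5%, 72.7%, 77.4%, 71.3% and 56.3%. Monocytes/macrophages held 3.85%, 9.40%, 9.5% and 4.25% of the Glut5 KO UMIs under the first 4 of these settings, and 3.87%, 10.0%, 11.6%, 15.9%, 11.1% and 9.58% of the WT UMIs under all 6. Tnfrsf13c in Glut5 KO B cells was 75.8 CPM with whole clusters, 128 CPM over totals without immunoglobulin, mitochondrial and ribosomal genes, 163 CPM without second-class cells, 119 CPM with Y-linked UMIs alone, 151 CPM with Xist alone and 112 CPM after thinning.

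No paired analysis was possible because each genotype had 1 library. The WT B and plasma values rest on 35 and 5 cells, and 18 of the 35 also scored for a second class.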
